A study of Mus musculus with 15 samples.

Results

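Cultures exposed to doxycycline for 24 h were compared with cultures exposed for 4 h, in organoids grown from normal mouse pancreatic ducts. The members are all libraries labelled 24 h (n = 5) and all labelled 4 h (n = 5), that is 10 of the 15 libraries of the series. The other 5 libraries, labelled 0 h, served to tell whether a gene had already changed at 4 h. Each of 5 organoid lines gave 1 library at each time, and every line was compared with itself. The study asks what follows when doxycycline switches on the synthesis of CA19-9, a sialylated Lewis glycan that mice do not make. Lines A217, A220 and A225 (called inducible) hold all alleles needed for it, and lines A218 and A223 (called negative, "genetic negative" in the labels) lack 1 of them. Both kinds were pooled here, because both received doxycycline at 1 µg/ml. The sources used here do not name the driver of the alleles, nor which allele each negative line lacks, and doxycycline alone in lines without any allele was not analysed here.

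All cultures shared Matrigel, a medium with EGF, FGF10, gastrin, Noggin, R-spondin, N-acetylcysteine, nicotinamide and the TGF-β receptor inhibitor A 83-01, a medium change 24 h before harvest, and a common harvest, per the labels' protocols. The 24 h cultures therefore met doxycycline with fresh medium, whereas the 4 h cultures met it in medium that had already been on the cells. Whether each line came from an animal of its own is not stated in the labels. The p-values rest on how unevenly the lines changed between times, after the level of each line was taken out. Because the organoids are bulk samples, fewer cells of a type and less RNA per cell cannot be told apart.

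Doxycycline acts in inducible systems by binding a transactivator, here rtTA3, which then drives genes behind tetracycline operator sequences. It is also an antibiotic that binds bacterial ribosomes and can impair protein synthesis in mitochondria, which descend from bacteria. Genes that respond within hours often encode signalling and stress proteins with short-lived mRNA, and may return while a stimulus goes on. Duct organoids are simple epithelia whose keratins, transporters and growth rate are read out in bulk RNA.

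Library totals ranged from 47915632 to 59411540 estimated counts. The sum of 19 duct epithelium markers stood at 12200 to 14800 CPM (counts scaled to library size) at 4 h and at 16700 to 19200 CPM at 24 h. Of 21 acinar markers 3 passed the expression filter, with a sum between 2.48 and 4.2 CPM in all 15 libraries, and Ptf1a, Cpa1, Pnliprp1 and Amy2b stood at 0. Of 19 endocrine markers 2 passed, and Ins1, Ins2, Gcg and Ppy stood at 0. Endothelial markers (5 of 9 passed) summed to between 5.66 and 9.06 CPM, with Emcn and Cldn5 at 0, and fibroblast markers (3 of 15 passed) to between 1.95 and 8.74 CPM. Immune markers (7 of 14 passed) summed to between 73.9 and 107 CPM, most of it Cd14 at 78.2 CPM at 4 h and 84.8 CPM at 24 h on average, with Adgre1 at 0. EGFP, a sequence added to the reference, reached 260, 340 and 311 CPM at 4 h in lines A217, A220 and A225. In the same lines it reached 282, 385 and 269 CPM at 24 h. It stayed under 1 CPM in lines A218 and A223, which the labels call genetic negative. The 24 h against 4 h change of EGFP did not pass the test, at 0.02 ± 0.22 (log2, SE; adjusted p = 0.947).

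Levels are given as CPM in the order of lines A217, A218, A220, A223 and A225. A change is a log2 ratio with its standard error from edgeR's quasi-likelihood fit with the line as a block, and a gene is called at an adjusted p below 0.05 over all 15403 features tested. Between 4 h and 24 h, 6050 features were called (39.3% of those tested), 3272 higher (21.2%) and 2778 lower (18%) at 24 h. With upper-quartile scaling, which moved the median change of all features from -0.007 to -0.04, the split was 2594 higher and 3465 lower. Most changes were small. The median size among called features was 1.18-fold, 725 passed 1.5-fold and 236 passed 2-fold, 101 of these higher and 135 lower. Of the 6050 called features, 5282 moved the same way in all 5 lines (87.3%, against 40.9% of all features tested), and 6048 had the same direction in both genotypes. Both counts rest on the libraries that chose these features, and the test favours lines that agree, so they are no separate evidence. At 4 h against 0 h, 1493 features had been called (9.69%), and at 24 h against 0 h 5973 were (38.8%). These comparisons share libraries.

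The features changed at 4 h fell into classes by what they did next. Reverting features were called in the opposite direction between 4 h and 24 h, growing ones in the same direction, and persisting ones were not called between 4 h and 24 h but differed from 0 h at 24 h. By these calls, more than 1 in 3 reverted in either direction. Of 821 early falls (5.33% of features), 437 reverted (53.2%), 75 grew (9.1%), 230 persisted (28.0%) and 79 were unresolved (9.6%). Of 672 early rises (4.36%), 259 reverted (38.5%), 135 grew (20.1%), 204 persisted (30.4%) and 74 were unresolved (11%). Whether rises and falls differ in these shares was not tested. Both changes use the 4 h libraries, so chance deviations of these enter each with opposite sign. A further 3842 features moved late: they were called at 24 h against both 4 h and 0 h but not at 4 h, 2097 higher and 1745 lower. Of the late rises, 90.7% had changed by less than 1.1-fold at 4 h. The class is defined by no call at 4 h, so a small change then is partly built into it. Among rises called at 24 h against 0 h alone, the share was 73.8%. The remaining 1302 were called at 24 h against 4 h alone.

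**Figure D1:**
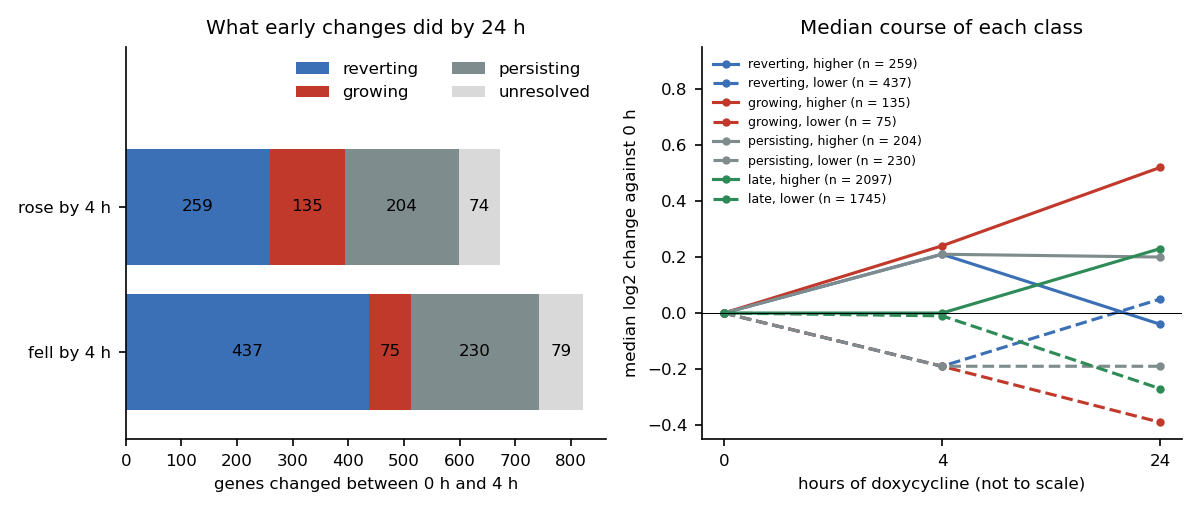
Left, number of features that rose or fell between 0 h and 4 h, split by class at 24 h. Right, median log2 change against 0 h of each class at 4 h and 24 h, with the number of features: reverting falls start at -0.19 and end at 0.05, and growing rises go from 0.24 to 0.52.

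Early changes were also chosen in 1 genotype and followed in the other, which shares no library with it. Of 263 early falls chosen in the inducible lines, 204 (77.6%) were higher at 24 h than at 4 h in the negative lines, against 48.9% of all features tested, with a median change of 0.16 (log2). Of 121 early falls chosen in the negative lines, 100 (82.6%) were higher at 24 h in the inducible lines, against 49.2% of all features, with a median of 0.27. Early rises gave no such return in the other genotype. A smaller share was lower at 24 h than among all features, and the median changes were positive. Of 215 chosen in the inducible lines 41.4% were lower at 24 h in the negative lines (51.1% of all features), and of 82 chosen in the negative lines 39% were lower in the inducible lines (50.8%), with medians of 0.07 and 0.08.

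Antioxidant genes that NRF2 controls fell by 4 h and came back by 24 h. NRF2 is a transcription factor that is stabilised when cells meet oxidants or electrophiles, and its targets make glutathione, reduce quinones and supply NADPH. Of 28 listed targets, all tested, 19 were lower and none higher at 4 h (median -0.14, against 0.00 for all features), and 24 were higher and none lower at 24 h than at 4 h (85.7%; median 0.19, against -0.01). In all, 16 reverted. Against 0 h, 11 were higher and 4 lower at 24 h. Gclc, the catalytic subunit of the first enzyme of glutathione synthesis, stood at 690, 650, 655, 709 and 767 CPM at 0 h, at 403, 303, 360, 344 and 356 CPM at 4 h and at 792, 642, 718, 744 and 919 CPM at 24 h. The 4 h libraries lay below all others. The rise from 4 h to 24 h was 1.11 ± 0.05 (adjusted p = 1.29e-09), and the 24 h level did not pass the test against 0 h (0.13 ± 0.05, adjusted p = 0.0528). Osgin1, an oxidative stress-induced gene, stood at 81.7, 105, 107, 92.1 and 86.6 CPM at 4 h and at 150, 191, 202, 185 and 156 CPM at 24 h, with no overlap (0.90 ± 0.04, adjusted p = 1.64e-09). Srxn1, which restores oxidised peroxiredoxins, rose by 0.63 ± 0.04 (adjusted p = 1.67e-08) after a fall of -0.54 at 4 h. Slc7a11, the cystine importer, rose by 0.48 ± 0.04 (adjusted p = 5.66e-07) but at 24 h remained below 0 h (-0.14 ± 0.04, adjusted p = 0.0141). Abcc4, an efflux pump, followed another course: it was not called at 4 h (-0.13, adjusted p = 0.0843) and rose by 0.70 ± 0.05 afterwards.

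**Figure D2:**
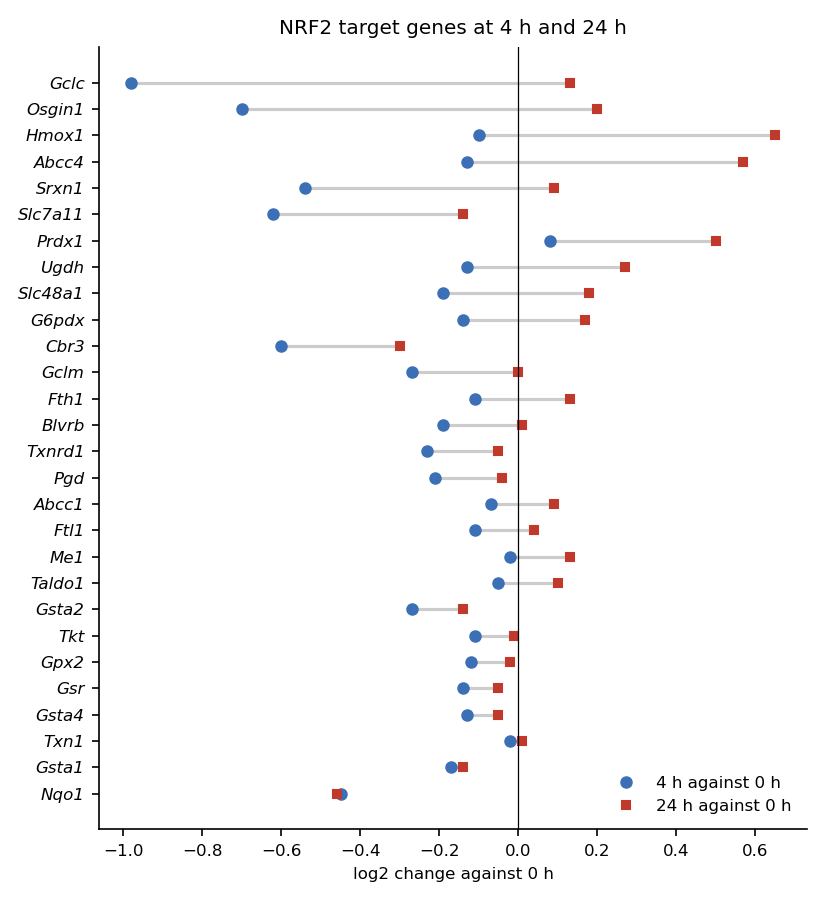
Log2 change of the 28 NRF2 targets against 0 h, at 4 h (circles) and 24 h (squares), ordered by the change between these times. Most circles lie left of 0 and most squares to their right; Gclc spans -0.98 to 0.13.

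Promoters were searched in the 250 bases before the RefSeq gene starts (GRCm38.p6), on both strands. The core of the antioxidant response element, TGACNNNGC, was found before 6 of the 22 NRF2 targets with a RefSeq promoter (27.3%) and before 11.5% of all 27025 genes. It was also found before 4 of 16 immediate early genes (25.0%) and 3 of 16 clock genes (18.8%). The E-box CACGTG, which binds clock proteins and other helix-loop-helix factors, was found before 5 of 16 clock genes (31.2%), 4 of 16 immediate early genes (25.0%) and 1 of 22 NRF2 targets (4.5%), and before 6.9% of all genes. The AP-1 site TGANTCA was found before none of 16 immediate early genes, none of 16 clock genes and 3 of 22 NRF2 targets (13.6%), against 7.8% of all genes. TGACNNNGC and TGANTCA can match the same letters, and CACGTG can share its end letters with either. A match is no sign of binding, and a missing match says only that these letters are not in this window. The 4 promoters shown are those with a match before the called members of these lists that changed most between 4 h and 24 h. They are written from the far end to the base before the start, and capitals mark TGACNNNGC (on either strand) in Abcc4 and Ugdh and CACGTG in Ciart and Per1. The other of these motifs also occurs in Abcc4 and Per1 and is left in lower case there. Abcc4 lies at chr14:118706220-118706469 and Ugdh at chr5:65435843-65436092, both on the minus strand. Ciart lies at chr3:95882229-95882478 on the minus strand and Per1 at chr11:69098699-69098948 on the plus strand.
Abcc4: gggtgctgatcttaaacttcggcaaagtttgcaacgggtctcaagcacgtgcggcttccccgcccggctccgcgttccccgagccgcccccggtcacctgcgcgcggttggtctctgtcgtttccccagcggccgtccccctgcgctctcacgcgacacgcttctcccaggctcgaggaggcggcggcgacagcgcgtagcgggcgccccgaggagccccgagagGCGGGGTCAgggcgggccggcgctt
Ugdh: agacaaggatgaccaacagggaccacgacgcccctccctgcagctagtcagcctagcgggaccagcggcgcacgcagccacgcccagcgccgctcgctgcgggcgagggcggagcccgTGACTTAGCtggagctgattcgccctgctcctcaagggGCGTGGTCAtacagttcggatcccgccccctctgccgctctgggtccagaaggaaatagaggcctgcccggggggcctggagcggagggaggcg
Ciart: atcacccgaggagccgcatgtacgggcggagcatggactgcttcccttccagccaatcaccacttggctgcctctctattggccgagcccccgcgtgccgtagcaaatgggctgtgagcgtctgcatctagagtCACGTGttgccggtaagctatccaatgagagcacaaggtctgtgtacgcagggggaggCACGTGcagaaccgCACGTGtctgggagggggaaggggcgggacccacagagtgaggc
Per1: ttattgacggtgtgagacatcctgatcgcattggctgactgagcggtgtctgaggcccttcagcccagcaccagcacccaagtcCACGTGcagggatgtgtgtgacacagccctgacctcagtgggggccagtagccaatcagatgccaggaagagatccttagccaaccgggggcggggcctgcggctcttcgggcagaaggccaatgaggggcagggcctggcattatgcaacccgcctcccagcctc

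These 4 genes did not move alike. Abcc4 and Ugdh, the enzyme that makes UDP-glucuronate, rose by 0.70 ± 0.05 and 0.40 ± 0.03 (adjusted p = 3.31e-08 and 2.16e-07). Per1, a repressor in the clock loop that glucocorticoids also induce, reverted: it went from 6.56, 7.54, 7.36, 6.50 and 4.89 CPM at 4 h to 7.86, 10.7, 12.2, 13.2 and 8.30 CPM at 24 h (0.66 ± 0.09, adjusted p = 3.28e-05). All 24 h values lay above all 4 h values. Ciart, another clock repressor, fell by 0.78 (-0.78 ± 0.16, adjusted p = 0.000883), with overlap between the times, and was not called in the negative lines alone (-0.60). Of 20 clock genes, 6 were higher and 3 lower at 24 h. Clock itself, the activator of the loop, had already risen from a mean of 97.2 CPM at 0 h to 233 CPM at 4 h, and it reached 278 CPM at 24 h (0.25 ± 0.06, adjusted p = 0.00233). Its 4 h and 24 h values overlapped between lines (208 to 263 CPM and 215 to 331 CPM), and it was not called without the line as a block (0.26) or in the inducible lines alone (0.23).

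Metallothioneins are small cysteine-rich proteins that bind zinc and copper. Of 6 tested genes of metallothioneins and zinc handling, 3 (Mt1, Mt2 and Slc30a1) were lower at 4 h and reverted, and 2 rose late. In all, 5 were higher and none lower at 24 h than at 4 h (83.3% higher, against 21.2% of all features; median 0.57). Mt2 stood at 34.9, 28.4, 31.7, 35.6 and 23.2 CPM at 0 h, at 22.5, 20.9, 19.1, 25.9 and 13.4 CPM at 4 h and at 62.3, 55.6, 74.2, 80.3 and 47.0 CPM at 24 h. All 24 h values exceeded all others, with a rise of 1.65 ± 0.07 between 4 h and 24 h (adjusted p = 3.48e-10) and of 1.05 ± 0.07 over 0 h. Mt1 rose by 0.99 ± 0.04, and Slc30a1, the zinc exporter of the plasma membrane, by 0.74 ± 0.05 (adjusted p = 1.29e-09 and 2.71e-08). Mt2 also belongs to the glucocorticoid-responsive list, of which 9 of 11 members were higher and none lower at 24 h (81.8%; median 0.30), after 5 had been lower at 4 h. Another member is Sgk1, a kinase that regulates sodium channels, with 11.5, 11.6, 12.0, 9.88 and 13.6 CPM at 4 h and 23.7, 31.9, 30.4, 30.6 and 42.0 CPM at 24 h. The 2 times did not overlap (1.42 ± 0.08, adjusted p = 1.09e-08), and Sgk1 had not been called at 4 h. Dusp1, a phosphatase of MAP kinases, rose by 0.88 ± 0.06 (adjusted p = 8.37e-08).

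Other falls that came back included Fam107a, an actin-associated protein, from a mean of 1.21 CPM at 4 h to 4.23 CPM at 24 h (1.84 ± 0.16, adjusted p = 5.62e-07), and the water channel Aqp1 (0.85 ± 0.05, adjusted p = 1.06e-08). Both ended above 0 h, Fam107a by 0.95 and Aqp1 by 0.50 on the log2 scale. Over all 437 reverting falls, 162 differed from 0 h at 24 h, 143 of them on the opposite side of 0 h. The regulators Myc and Sox9, the latter a transcription factor of the duct lineage, reverted too. Sox9 rose by 0.53 ± 0.08 and did not pass the test against 0 h at 24 h (adjusted p = 0.0746). Myc rose by 0.32 ± 0.04 and stayed below 0 h (-0.17 ± 0.04, adjusted p = 0.00163). The transgene sequences mKate2 and rtTA3, present in all lines, shared this course, at 0.46 ± 0.06 and 0.45 ± 0.06 between 4 h and 24 h, and neither was called without the line as a block.

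Among early rises that reverted, the largest later fall belonged to Banp, a nuclear protein that binds unmethylated DNA motifs. Its level was 19.4, 18.3, 18.3, 17.7 and 22.1 CPM at 0 h, 26.2, 28.1, 25.3, 24.7 and 25.9 CPM at 4 h and 13.6, 11.1, 10.5, 11 and 9.60 CPM at 24 h. The 3 times did not overlap, and the fall from 4 h was -1.23 ± 0.07 (adjusted p = 2.15e-08), which left Banp below 0 h (-0.78 ± 0.08). Ogt, which attaches N-acetylglucosamine to nuclear and cytosolic proteins, went from a mean of 88.0 CPM at 0 h to 120 CPM at 4 h and 72.3 CPM at 24 h (-0.73 ± 0.05 from 4 h, adjusted p = 2.15e-08). Ccng2, an atypical cyclin linked to cell cycle arrest, fell by 24 h (-0.57 ± 0.05, adjusted p = 2.87e-07; against 0 h -0.04, adjusted p = 0.568). Of 12 SR splicing factors, proteins that help select exons, 8 were lower and 1 higher at 24 h than at 4 h (66.7% lower; median -0.20), and 5 reverted. Srsf10 went from 201, 170, 174, 190 and 174 CPM at 4 h to 148, 133, 127, 126 and 140 CPM at 24 h, without overlap (-0.44 ± 0.04, adjusted p = 2.01e-06), and Tra2b changed by -0.39 ± 0.03. Srsf5 moved the other way, down at 4 h and up by 0.38 ± 0.03 later.

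**Figure D3:**
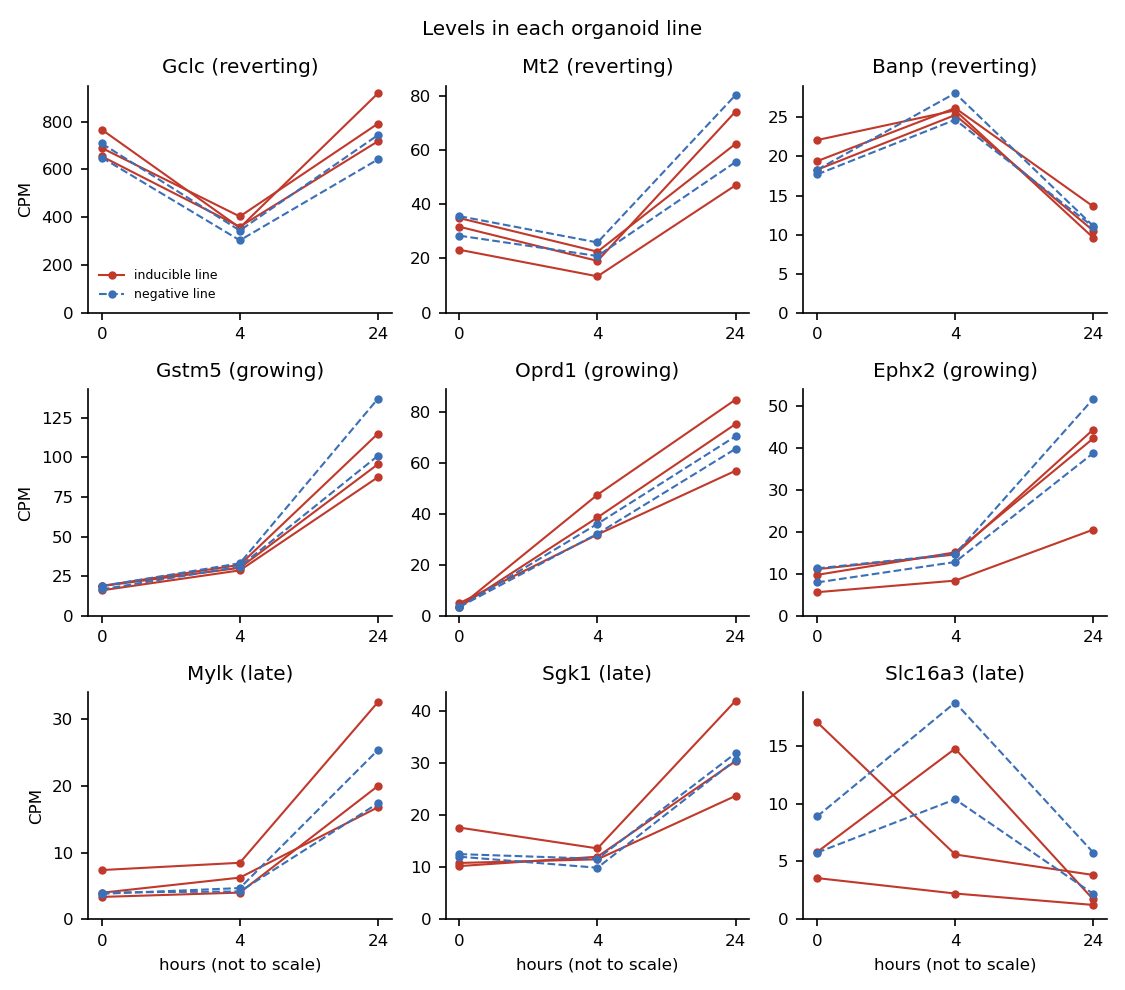
Level in CPM of 9 genes at 0, 4 and 24 h, 1 line per organoid line, solid for inducible and dashed for negative lines; the class stands in each title. Gclc and Mt2 dip at 4 h, Banp peaks there, Gstm5, Oprd1 and Ephx2 climb throughout, and Mylk and Sgk1 rise mostly after 4 h, in lines of both genotypes.

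The largest rise among named genes was in the growing class. Vstm2b, an immunoglobulin-domain membrane protein, had 2 counts over the 5 libraries at 0 h, 221 at 4 h and 2144 at 24 h. Its level rose from 1.22, 0.915, 1.12, 0.541 and 0.495 CPM at 4 h to 7.13, 7.37, 12.2, 9.82 and 6.83 CPM at 24 h, without overlap (3.35 ± 0.19, adjusted p = 1.06e-08). Oprd1, the delta opioid receptor, rose from a mean of 3.80 CPM at 0 h to 37.3 CPM at 4 h (log2 change 3.28) and then to 70.6 CPM at 24 h (0.93 ± 0.09, adjusted p = 9.67e-07). Gstm5, a glutathione transferase of the mu class, had risen by 0.80 at 4 h. It stood at 30.3, 31.1, 32.2, 33.2 and 28.7 CPM at 4 h and at 95.7, 101, 115, 137 and 87.5 CPM at 24 h, all higher (1.77 ± 0.06, adjusted p = 4.81e-11). Of the 7 tested genes of its cluster, Gstm2, Gstm5 and Gstm7 were higher and Gstm1 lower (-0.08, not called in most fits that left out a library) at 24 h, and reads shared between these similar genes make their separate levels uncertain.

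Ephx2, the soluble epoxide hydrolase, went from 8.38, 12.8, 15.1, 14.7 and 14.6 CPM to 20.5, 38.7, 42.2, 51.6 and 44.3 CPM, again without overlap (1.56 ± 0.06, adjusted p = 3.48e-10). Angptl4, a secreted inhibitor of lipoprotein lipase, rose by 0.79 ± 0.06 after 1.58 ± 0.07 at 4 h, but not past the threshold without the line as a block. Both belong to the targets of PPAR nuclear receptors, which sense fatty acids. Of the 23 tested targets 12 were higher and 1 lower at 24 h (52.2%; median 0.07), 10 of the changes being late. Hspb1, a small heat shock protein, and Hopx, a homeodomain-like regulator, grew by 1.24 ± 0.08 and 1.01 ± 0.13. The mucin Muc13 stood at 0.95, 0.894, 1.02, 0.677 and 0.547 CPM at 4 h and at 1.21, 1.83, 2.05, 2.26 and 1.29 CPM at 24 h, all higher (1.08 ± 0.29, adjusted p = 0.00732), but was not called in the inducible lines alone (0.87). Growing falls were smaller. The largest among them were Adamts15, a secreted metalloprotease, at -0.60 ± 0.11 (adjusted p = 0.000532) and Akr1b7, an aldo-keto reductase, at -0.57 ± 0.07 (adjusted p = 1.9e-05). In both, line A217 stood above the other lines at each time, and neither was called without the line as a block.

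Persisting genes differed from 0 h at both times, with no call between 4 h and 24 h, which does not show that they stayed level. Fkbpl, a protein of the FKBP family, stood at 13.4, 16.1, 14.1, 15.1 and 16.3 CPM at 4 h and at 12.8, 15.9, 15.5, 16.2 and 16.2 CPM at 24 h, which overlap (0.03 ± 0.06, adjusted p = 0.715), against 6.20 to 8.04 CPM at 0 h. Sox17, an endoderm transcription factor, stood at 20.7, 22.5, 17.6, 20.7 and 14.1 CPM at 4 h and at 21, 23.6, 17.9, 20.6 and 13.6 CPM at 24 h (0.01 ± 0.05, adjusted p = 0.873), against 24.4 to 32.8 CPM at 0 h. Cdkn2d, an inhibitor of cyclin-dependent kinases 4 and 6, kept a rise of 0.92 ± 0.09 at 4 h and 0.72 ± 0.09 at 24 h, and Il1a, an alarmin cytokine, one of 1.08 ± 0.20 and 1.5 ± 0.20. Of 34 Myc and ribosome biogenesis genes, 16 were lower at 4 h and 12 persisted. Between 4 h and 24 h 13 were lower and 2 higher (38.2% lower; median -0.04), and at 24 h 29 were below 0 h.

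Genes of cell division fell late. Of 41 genes of DNA replication, which license origins and copy DNA in S phase, none was higher and 32 were lower at 24 h than at 4 h (78.0%; median -0.18), 12 having been lower at 4 h already. Of 30 genes of mitosis and the spindle, none was higher and 26 were lower (86.7%; median -0.19), and all 26 were late, none having been called at 4 h. Prim1, the primase subunit that starts DNA strands, went from 86.1, 68.7, 64.4, 80.0 and 73.8 CPM to 69.8, 54.4, 52.5, 55.3 and 55.6 CPM, so the 2 times overlapped between lines but each line fell (-0.38 ± 0.04, adjusted p = 2.68e-06). Cdc45, a subunit of the replicative helicase, fell by -0.45 ± 0.05 (adjusted p = 3.39e-06). Top2a, which untangles chromosomes, went from 908, 797, 751, 865 and 905 CPM to 830, 616, 596, 607 and 687 CPM (-0.35 ± 0.04, adjusted p = 1.79e-05). Bub1b, a spindle checkpoint kinase, fell by -0.36 ± 0.05. In each of these 4 genes the 24 h level was highest in line A217. Without the line as a block 14 replication and 15 mitosis genes were called, all lower. The inducible lines alone gave 14 and 15 lower, and the negative lines alone 28 and 27; the difference between genotypes was called for none of them.

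**Figure D4:**
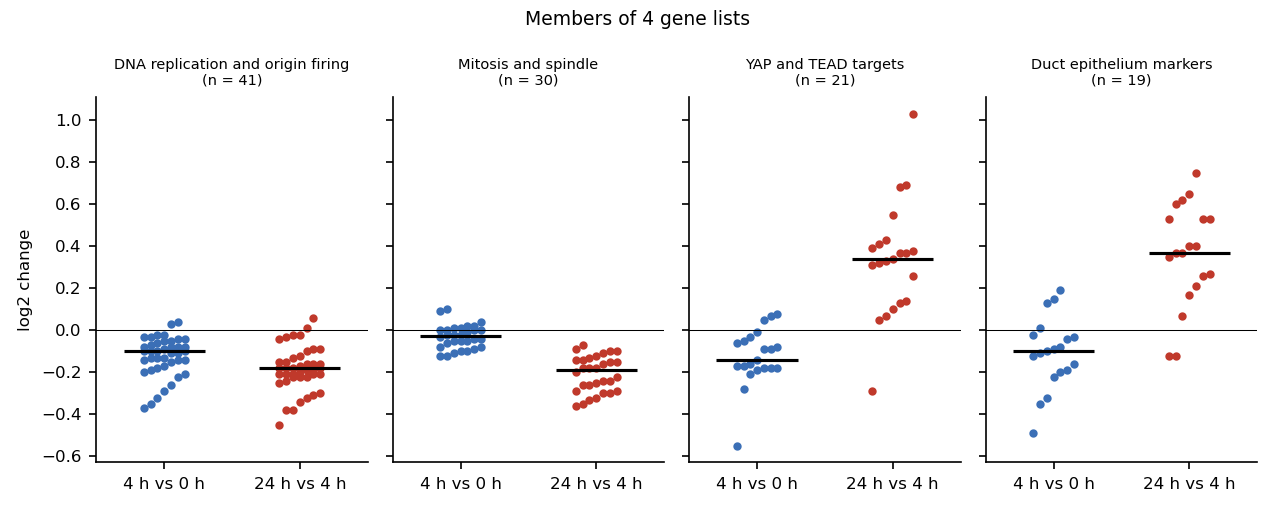
Log2 change of each tested member of 4 gene lists, at 4 h against 0 h and at 24 h against 4 h, with the median as a bar. Mitosis genes lie near 0 at 4 h (median -0.03) and below it later, while YAP targets and duct markers lie mostly below 0 first and above it later.

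Of 26 actomyosin genes, which build and pull actin filaments, 19 were higher and 1 lower at 24 h (73.1%; median 0.18), and none had been called at 4 h. Mylk, the kinase that activates myosin light chains, stood at 6.23, 4.15, 3.98, 4.66 and 8.46 CPM at 4 h and at 16.8, 17.4, 20, 25.4 and 32.6 CPM at 24 h, all higher (2.04 ± 0.11, adjusted p = 1.07e-08). Nebl, an actin-binding protein, rose from 0.931, 1.42, 2.32, 0.715 and 0.820 CPM to 3.27, 3.58, 5.18, 4.42 and 3.99 CPM (1.79 ± 0.20, adjusted p = 6.83e-06). More abundant members moved less, Actn1 by 0.29 ± 0.03 and Vcl by 0.20 ± 0.03. Of 21 targets of YAP and TEAD, transcription regulators that answer to cell shape and tension, 18 were higher and 1 lower at 24 h (85.7%; median 0.34), after 7 had been lower at 4 h. In this list 11 genes were late and 6 reverted. The receptor kinase Axl stood at 1.69, 5.28, 4.70, 8.37 and 10.4 CPM at 4 h and at 4.29, 10.4, 9.80, 17.7 and 18.4 CPM at 24 h. It rose in each line although the times overlapped between lines (1.03 ± 0.08, adjusted p = 2.13e-07), and was not called without the line as a block.

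Of 19 duct epithelium markers 16 were higher and 1 lower (84.2%; median 0.37), after 5 had been lower and 1 higher at 4 h. Of these, 11 were late and 5 reverted. Krt8, a keratin of simple epithelia, went from 3650, 3800, 4280, 3180 and 4010 CPM to 5300, 5950, 5790, 6080 and 5740 CPM, without overlap (0.62 ± 0.05, adjusted p = 4.04e-07), and its partner Krt18 rose by 0.60 ± 0.05. Reads shared with processed pseudogenes make the levels of both keratins uncertain. Among 24 proteases and matrix genes 14 were higher and 4 lower (58.3% higher), after 5 had been lower at 4 h, and 12 were late and 4 reverted. Plau, the urokinase that activates plasminogen, rose by 0.72 ± 0.06 and its receptor Plaur by 0.60 ± 0.05 (adjusted p = 3.56e-07 and 4.87e-07).

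**Figure D5:**
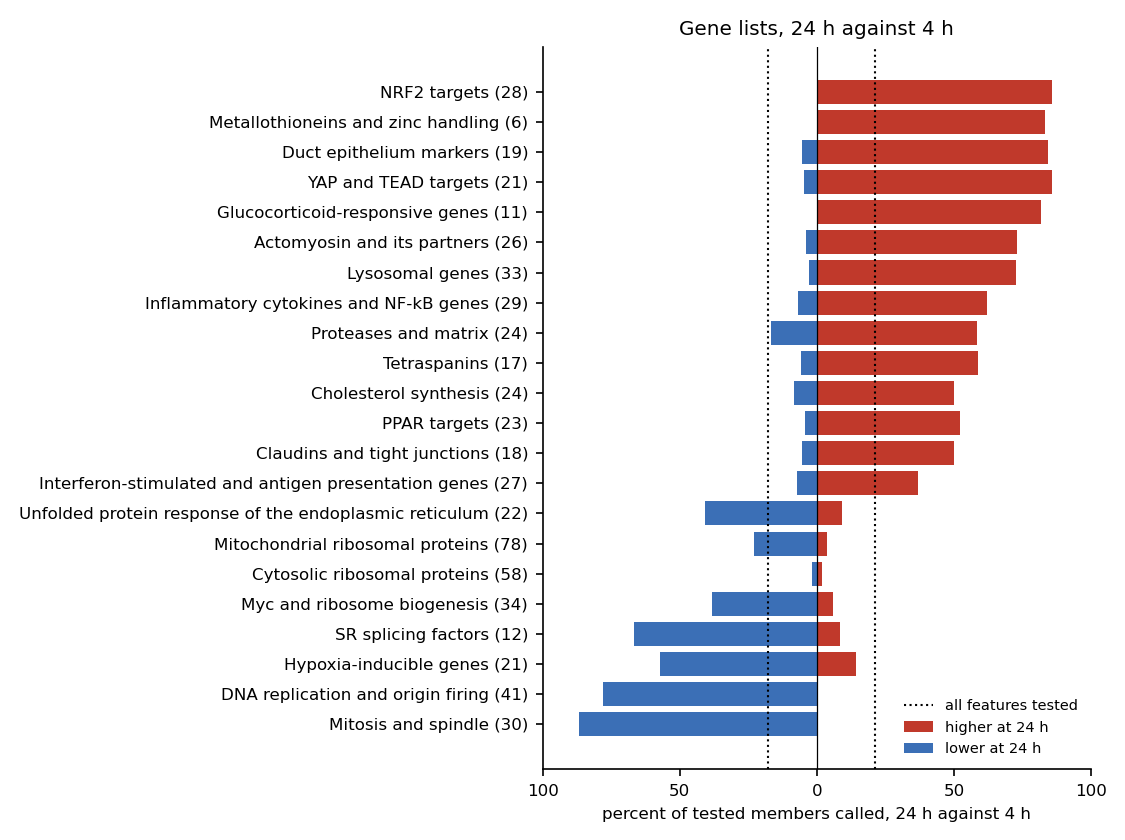
Percent of the tested members of 22 gene lists (number in brackets) called higher, to the right, or lower, to the left, at 24 h against 4 h; dotted lines mark all features tested, 21.2% and 18%. Replication and mitosis genes were called lower only, NRF2 targets higher only, and cytosolic ribosomal proteins hardly in either direction.

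Of 29 cytokine and NF-κB genes, which drive inflammation, 9 were higher and 1 lower at 4 h, and 18 were higher and 2 lower at 24 h than at 4 h (62.1% higher; median 0.32). Of these genes 15 were late, 3 grew, 4 persisted and 2 reverted. Ccl20, a chemokine of epithelia, stood at 34.0, 34.5, 41.2, 22.9 and 19.9 CPM at 4 h and at 51.7, 83.4, 64.3, 50.5 and 41.7 CPM at 24 h, all higher (0.95 ± 0.08, adjusted p = 5.62e-07). Ccl2, which draws monocytes, rose by 1.12 ± 0.10, and Csf2, a growth factor of myeloid cells, from 0.931, 1.20, 1.87, 1.66 and 2.31 CPM to 2.98, 3.20, 3.77, 3.74 and 3.95 CPM (1.18 ± 0.15, adjusted p = 1.48e-05). Ccl2 was not called without the line as a block. Immune cell markers, summed over the list, overlapped between the times (73.9 to 95.7 CPM at 4 h and 78.5 to 104 CPM at 24 h), with Csf1r at 1.13 CPM at 4 h and 2.25 CPM at 24 h; their part in the result was not tested. Of 27 interferon-stimulated and antigen presentation genes 10 were higher and 2 lower (37.0%), all late or not called against 0 h, with B2m, the light chain of class I molecules, at 0.33 ± 0.03 and Mx1, an antiviral GTPase, at -0.44 ± 0.08.

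Of 33 lysosomal genes 24 were higher and 1 lower at 24 h (72.7%; median 0.19). Atp6v1a, a subunit of the pump that acidifies lysosomes, grew from 242, 250, 255, 250 and 274 CPM to 286, 342, 323, 356 and 355 CPM (0.38 ± 0.03, adjusted p = 7.2e-07), and the protease Ctsl rose by 0.43 ± 0.04. Of 24 cholesterol synthesis genes 12 were higher and 2 lower (50%; median 0.10), the largest named rise being that of Insig1, a sterol sensor, at 0.48 ± 0.06 (adjusted p = 1.94e-05).

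Hypoxia-inducible genes fell between 4 h and 24 h. Of 21 members 12 were lower and 3 higher (57.1% lower; median -0.28), although 1 was higher and none lower at 4 h. Ankrd37, an ankyrin repeat protein, fell from 4.73, 6.87, 5.47, 11.6 and 7.96 CPM to 2.83, 2.40, 3.36, 3.52 and 1.89 CPM, without overlap (-1.39 ± 0.22, adjusted p = 0.000119). Slc16a3, the lactate exporter, stood at 2.22, 10.4, 5.61, 18.8 and 14.8 CPM at 4 h and at 1.23, 2.19, 3.83, 5.78 and 1.71 CPM at 24 h. It fell in each line (-1.83 ± 0.35, adjusted p = 0.000667), but the times overlapped and the lines were far apart at 4 h, with A217 lowest. Bnip3, which acts in mitophagy, changed by -1.14 ± 0.24 (adjusted p = 0.00129; not called without the line as a block), and Adm, a vasodilator peptide, by -1.93 ± 0.33 at 1.37 CPM or less in every library of either time. Among glycolytic genes 2 of 18 were higher and 3 lower, namely Slc16a3, the hexokinase Hk2 (-0.48 ± 0.06) and the phosphofructokinase Pfkp (-0.51 ± 0.05).

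Of 22 unfolded protein response genes 4 had been higher at 4 h, and 9 were lower and 2 higher at 24 h (median -0.05, 40.9% lower against 18% of all features). The inducible lines alone gave 7 lower and 0 higher, and the negative lines alone, which are fewer, 2 lower and 1 higher. The difference between genotypes was called for none of them. Dnajb9, a chaperone partner of Hspa5, changed by -0.50 ± 0.07 after its early rise (against 0 h -0.08, adjusted p = 0.403). Of 13 respiratory chain genes in mitochondrial DNA, 4 were higher at 4 h and 5 were higher and 1 lower at 24 h than at 4 h (38.5% higher; median 0.17). The gain was not shared by all lines: mt-Nd2 went from 88.1, 86.0, 87.2, 99.5 and 90.0 CPM to 86.3, 93.6, 133, 117 and 135 CPM (0.32 ± 0.09, adjusted p = 0.00984), and it was not called without line A225 (0.25) or in the negative lines alone (0.18). Of the list, the inducible lines alone gave 4 higher and 1 lower (median 0.26), and the negative lines alone 1 higher and 0 lower (median 0.05). At 4 h genes of mitochondrial DNA together held 1.018, 0.923, 0.939, 0.99 and 0.909% of counts. At 24 h they held 0.885, 0.798, 1.005, 0.981 and 1.059%, which was more in lines A220 and A225 only. Of 56 nuclear-encoded subunits 7 were higher and 3 lower, below the background of all features in both directions. Upper-quartile scaling turned this split to 2 higher and 10 lower. Of 78 mitochondrial ribosomal proteins 18 were lower and 3 higher (23.1% lower, near the 18% of all features). Their count depended on the scaling, with 29 lower and 0 higher under upper-quartile scaling. Of 15 mitochondrial chaperones and proteases 6 were lower (40.0%) and 1 higher. Hspd1, the mitochondrial chaperonin, fell from 1050, 977, 897, 1070 and 972 CPM to 895, 808, 725, 764 and 781 CPM (-0.32 ± 0.03, adjusted p = 1.87e-06), each 24 h value lying below all 4 h values.

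Of 58 cytosolic ribosomal proteins 1 was higher and 1 lower (1.7% each), and of 35 proteasome subunits 6 were higher (17.1%, near the 21.2% of all features) and 1 lower. Among 32 enzymes of glycan synthesis, the kind of protein that builds Lewis antigens, 10 were higher and 8 lower (31.2% and 25.0%). The sialyltransferase St3gal1 rose by 0.50 ± 0.07 (adjusted p = 4.02e-05), and the fucosyltransferase Fut1 fell from 1.37, 1.89, 1.3, 1.86 and 1.78 CPM to 0.688, 0.8, 0.899, 0.895 and 0.584 CPM (-1.09 ± 0.19, adjusted p = 0.000307). Of 19 immediate early genes 3 were higher and 2 lower.

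The change between 4 h and 24 h was also compared between genotypes, in a model with a separate change for each. Of 15403 features tested, 1 was called (0.00649%), the predicted gene Gm48493, and 773 had an unadjusted p below 0.05. Without the line as a block none was called, DESeq2 called 3, and the test without an expression filter called 18.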

How the data were processed

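RNA was sequenced from 15 libraries of 5 organoid lines at 0, 4 and 24 h. The authors' deposited files hold estimated counts per transcript from kallisto 0.43.1 on GRCm38, with TPM values, per the file headers and the submitters' processing notes, which also name DESeq2 1.18.1 and DESeq. The sources used here do not give a strand setting; reads of antisense partners may therefore be mixed. The deposited TPM values served only to weight effective lengths in 1 alternative.

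Estimated counts were rounded after summing per gene with GENCODE M21, which gave 34554 features. Unmatched transcripts held 0.56 to 0.59% of counts. The quasi-likelihood test of edgeR 4.0.16 (R 4.3.3) was fitted to all 15 libraries with time and line, so that 0 h libraries add to the estimate of spread. It used TMM scaling and the default filter (15403 features, 99.96% of counts; 8 residual degrees of freedom, biological coefficient of variation 0.0591) and Benjamini-Hochberg adjustment. Lines pair the libraries because each was sampled at every time. Deviations of a line at 4 h and 24 h correlated at 0.374 to 0.461 in inducible lines and 0.242 in negative ones. The fit was tested on simulated data.

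Alternatives included DESeq2 1.42.0 and limma 3.58.1, other scalings and filters, no block, each genotype alone, a length offset, and leaving out libraries or lines. A GC content and length offset was chosen after seeing the data. Members, gene lists and tests were chosen with earlier results of these data known. Named genes were up to 15 per direction with the largest change, called, protein-coding, at 1 CPM or more and of 1 sign in all lines, up to 8 per class and direction, and up to 6 called members per list. Markers at 0 fall outside it. Some results are not reported here.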

Additional observations from a re-analysis of the deposited data

Results flagged for a closer look

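The change of Gm48493 between 4 h and 24 h differed between genotypes by 1.24 (log2, inducible minus negative; edgeR adjusted p = 0.0268). Its level was 6.10, 7.62 and 10.2 CPM at 4 h and 6.75, 7.57 and 8.88 CPM at 24 h in inducible lines A217, A220 and A225. In negative lines A218 and A223 it was 10.4 and 12.1 CPM at 4 h and 5.03 and 4.32 CPM at 24 h. With 2 negative lines, the difference rests on few libraries. It was called in 2 of 10 fits that left out 1 library of 4 h or 24 h, and not without the line as a block. Among 30 genes with the largest changes, none had a line whose change between 4 h and 24 h stood apart from the other 4. These genes had been chosen as called and of 1 sign in all lines, so a line moving the other way could not appear. The check used Dixon's criterion, which chance meets in about 1 in 20 groups, and levels at each time were not put to it.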

How the results depend on the processing

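The main counts were 6050 features called at 24 h against 4 h, 1493 at 4 h and 5973 at 24 h against 0 h, with 696 reverting, 210 growing, 434 persisting and 3842 late. With no replicate block, that is without pairing the lines, they were 3590, 303, 3482, 130, 38, 106 and 2223, and the genotype difference was called for 0 features. The inducible lines alone gave 3576, 478, 3977, 198, 62, 181 and 2326, and the negative lines alone 3127, 203, 2954, 88, 37, 75 and 1983; both fits have fewer libraries. In the negative lines the 4 h change of EGFP was -0.17 and that of the human transcripts -0.01. The offset for effective length gave 806 early features, 357 reverting, 108 growing and 265 persisting; the cause was not tested. DESeq2 called 3 and no expression filter 18 features for the genotype difference.

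For the genotype difference, which was refitted only without single 4 h or 24 h libraries, 0 to 1 features were called. Leaving out 1 library or line gave 819 to 1608 early features, 410 to 711 reverting, 105 to 302 growing and 230 to 456 persisting. The lowest of each of these 4 came without line A220. Without the 4 h library of A217 or of A220, early, growing and persisting counts also moved by over 1.5 times (990, 125 and 279, or 962, 137 and 275), and without that of A223 the reverting count did (461). Without line A218 this held for early and growing features (981 and 115), without A223 for early and reverting ones (977 and 417), without A217 for reverting ones (436) and without A225 for growing ones (128). Over all settings 3127 to 6619 features were called at 24 h against 4 h. A GC content and length offset, chosen after seeing the data, gave 3308 higher of 6619. Of 315 named genes and added sequences, median-of-ratios scaling kept all calls, upper-quartile scaling lost 11 and no replicate block lost 87. With 1 library per line and time, changes in a single line have no error of their own.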
